A study of Mus musculus with 2 samples.

Results

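Genes that make reactive oxygen or nitrogen species or split arginine were followed in mouse colon tumours: Nox1, Noxo1, Noxa1, Duox2, Duoxa2, Cybb, Nos2, Arg1 and Arg2. They were chosen by symbol, and all 9 of 9 were found among the 32285 genes of the deposited matrices. The tumours came from mice given AOM and DSS, a carcinogen and a colitis-causing polymer that together produce inflammatory colon cancer. Single cells were profiled with 10x Genomics 3′ chemistry, version 3, in 1 library labelled Gsk3b (IEC-/-), whose name stands for loss of Gsk3b from the intestinal epithelium, and in 1 library labelled Gsk3b (IEC+/+), which keeps it. They are called the KO and the WT library here. Both groups had the same AOM and DSS treatment. The Cre driver, the strain, the age and the number of animals or tumours behind each library are not given in the sources used here. With 1 library per genotype no difference has a replicate check, no test was run, and library and genotype cannot be told apart. Every interval below is exact at 95% and covers counting error only.

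The KO library had 156641780 UMIs (unique molecular identifiers, one per captured transcript) in 2457921 barcodes, and 10543 cells with a median of 3554 UMIs passed the filters. The WT library had 164574326 UMIs in 2446729 barcodes, and 9885 cells with a median of 5409 UMIs passed. Of the called barcodes 49 occurred in both libraries, 0.374% of the KO and 0.399% of the WT barcodes. Cells were grouped with the 9 genes left out of the clustering, so no class was formed from them. There were 4455 KO and 4614 WT epithelial cells, 3632 and 2634 neutrophils, and 760 and 1261 monocytes or macrophages. Gsk3b itself differed little: it was at 238 CPM (UMIs of the gene scaled to a common total of all UMIs in the class) in KO and 260 CPM in WT epithelial cells, a log2 ratio of −0.13. In neutrophils its log2 ratio was 0.18 and in monocytes or macrophages 0.01. The labels do not say which part of the gene was deleted. If the 3′ tags lie outside that part, their level checks neither the deletion nor the labels.

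NADPH oxidases pass electrons from NADPH across a membrane to oxygen and release superoxide or hydrogen peroxide. Colon epithelium uses the NOX1 complex and the dual oxidase DUOX2, while phagocytes use the CYBB enzyme to kill microbes. Inducible nitric oxide synthase, the product of Nos2, turns arginine into citrulline and nitric oxide, and the arginases split the same amino acid into ornithine and urea, so these enzymes draw on one substrate. In macrophages Nos2 and Arg1 are classic markers of opposite activation states.

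Nox1 is the catalytic subunit of the colon epithelial oxidase and lies on the minus strand of chrX:134086421-134221956 (GRCm38, GENCODE vM21). Noxo1, its organizer subunit, lies on the plus strand of chr17:24696234-24700529, and Noxa1, its activator subunit, on the minus strand of chr2:25085667-25095149. Duox2, the hydrogen peroxide producing dual oxidase, occupies the minus strand of chr2:122279247-122298449. Duoxa2, which DUOX2 needs for maturation and transport to the surface, starts 450 bases away on the plus strand of chr2:122298900-122302885, so the pair is arranged head to head. Cybb, the phagocyte oxidase, lies on the minus strand of chrX:9435252-9487771. Nos2 lies on the plus strand of chr11:78920787-78960254. Arg1, the cytosolic arginase, lies on the minus strand of chr10:24915221-24927484 and Arg2, the mitochondrial one, on the plus strand of chr12:79130777-79156301.

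The 250 bases before the RefSeq start (GRCm38.p6) are shown for 3 genes: Nox1 and Cybb, 2 oxidases read in different cells, and Duoxa2, whose window lies in the short gap it shares with Duox2. Of the 9 genes, 6 had a promoter entry, and the Duox2 window overlaps an annotated untranslated region of Duox2 and is not shown. The Nox1 window is chrX:134111855-134112104 (minus strand), the Duoxa2 window chr2:122298650-122298899 (plus strand) and the Cybb window chrX:9469325-9469574 (minus strand). The Nox1 and Cybb windows lie inside the longer GENCODE spans of these genes. Capitals mark matches on either strand to GATAA (Nox1 and Cybb), TTTATG (Nox1) and TATAAA (Duoxa2), and no marked matches overlap.
Nox1: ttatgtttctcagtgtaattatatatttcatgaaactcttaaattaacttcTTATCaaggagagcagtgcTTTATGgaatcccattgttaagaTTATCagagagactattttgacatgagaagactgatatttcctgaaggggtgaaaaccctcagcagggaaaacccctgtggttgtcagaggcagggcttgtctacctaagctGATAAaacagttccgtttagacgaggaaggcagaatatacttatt
Duoxa2: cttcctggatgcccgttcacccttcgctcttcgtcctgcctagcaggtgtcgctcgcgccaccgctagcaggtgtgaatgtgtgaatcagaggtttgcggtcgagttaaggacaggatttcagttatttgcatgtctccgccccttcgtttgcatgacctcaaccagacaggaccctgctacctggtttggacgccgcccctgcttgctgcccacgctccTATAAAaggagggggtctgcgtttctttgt
Cybb: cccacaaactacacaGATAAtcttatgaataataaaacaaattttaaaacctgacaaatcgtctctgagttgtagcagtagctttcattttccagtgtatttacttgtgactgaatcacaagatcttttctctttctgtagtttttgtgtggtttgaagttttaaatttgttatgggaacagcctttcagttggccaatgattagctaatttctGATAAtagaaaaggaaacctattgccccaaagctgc
GATAA, the core letters of GATA factors, occurred 3 times in the Nox1 window, beginning 199, 157 and 45 bases before the start, and 2 times in the Cybb window. It is present in 22.5% of the 250-base windows of 32536 promoters. TTTATG, the core letters of the intestinal CDX factors, began 180 bases before the Nox1 start and occurs in 10.8% of windows. TATAAA, the TATA box letters, began 30 bases before the Duoxa2 start and occurs in 12.3% of windows. GAGGAA, the core letters of the myeloid factor PU.1, was found 1 time in the Nox1 window and 0 times in the Cybb window, with a share of 23.4% of windows. A match is a description of letters only.

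The 5 oxidase genes of the epithelium were higher in epithelial cells than in neutrophils or in monocytes and macrophages, and lay within 1.5-fold of each other in the libraries. Nox1 was at 13.3 CPM in KO and 17.0 CPM in WT epithelial cells, and at 3.30 CPM in KO and 2.45 CPM in WT neutrophils. Noxo1 was at 57.1 CPM in KO and 57.3 CPM in WT epithelial cells, and Noxa1 at 17.4 and 18.2 CPM. Over the whole class both libraries were thus nearly level for the organizer and the activator. Duox2 was at 61.0 CPM in KO and 69.6 CPM in WT epithelial cells, and Duoxa2 at 67.2 and 88.5 CPM. Both genes of this pair were lower in the KO library. In neutrophils and in monocytes or macrophages none of these 5 genes exceeded 14.4 CPM in either library, which was below their own level in the empty droplets (10.4 to 67.4 CPM in KO and 12.3 to 71.3 CPM in WT droplets). In the epithelial class Noxo1 and Noxa1 were themselves below the droplets, which held 67.4 CPM in KO and 66.8 CPM in WT for Noxo1, and 17.7 and 19.4 CPM for Noxa1.

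Cybb was highest in monocytes or macrophages, at 792 CPM in KO and 798 CPM in WT cells. B cells had 462 CPM in KO and 533 CPM in WT cells, and dendritic cells 222 and 270 CPM. In neutrophils Cybb was at 63.9 CPM in KO and 67.0 CPM in WT cells, close to the empty droplets at 46.8 and 65.9 CPM. The order of these classes was the same in both libraries, and the counting intervals of neighbouring classes did not overlap. Arg2 was highest in neutrophils, at 737 CPM in KO and 764 CPM in WT cells, then in monocytes or macrophages, at 151 and 167 CPM. Arg1 was highest in monocytes or macrophages, at 392 CPM in KO and 324 CPM in WT cells, and was 7.89 and 5.68 CPM in neutrophils. The arginases were thus highest in different myeloid classes, while monocytes or macrophages held both. UMIs count one end of each transcript, so these levels carry no correction for gene length, and the levels of different genes are not ranked against each other.

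**Figure D1:**
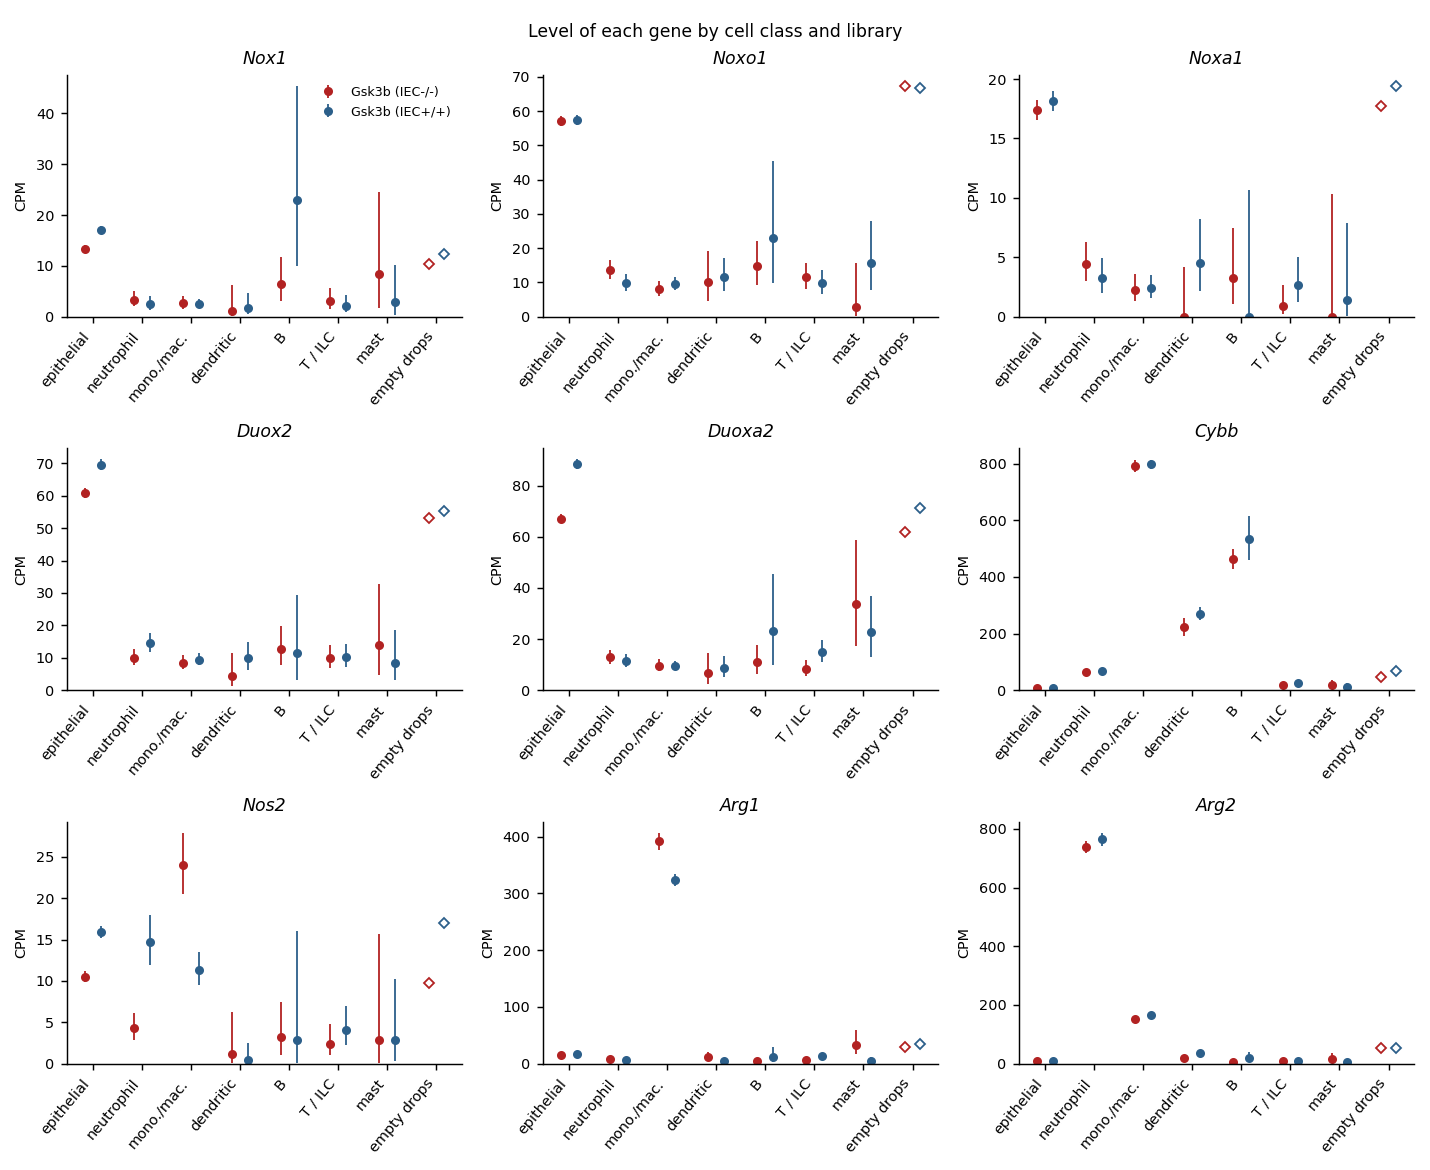
Level of each of the 9 genes (CPM, linear axes from 0) by cell class, KO in red left of WT in blue, with exact 95% Poisson intervals; open diamonds are the empty droplets. The 5 epithelial oxidase genes are higher in epithelial cells than in neutrophils or monocytes and macrophages, Cybb is highest in monocytes or macrophages and Arg2 in neutrophils at 737 and 764 CPM.

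Nos2 was spread over 3 classes, and the order of the classes differed between the libraries. In KO cells it was at 24.0 CPM in monocytes or macrophages (172 UMIs), 10.5 CPM in epithelial cells (1017 UMIs) and 4.31 CPM in neutrophils (30 UMIs). In WT cells it was at 11.4 CPM in monocytes or macrophages (126 UMIs), 15.9 CPM in epithelial cells (1639 UMIs) and 14.7 CPM in neutrophils (96 UMIs). The highest class was thus monocytes or macrophages in the KO library and epithelial cells in the WT library, where the interval of neutrophils (11.9 to 18.0 CPM) overlapped those of epithelial cells (15.1 to 16.7 CPM) and of monocytes or macrophages (9.46 to 13.5 CPM). T or innate lymphoid cells had 2.41 CPM in KO and 4.13 CPM in WT cells, and the empty droplets 9.79 CPM in KO and 17.0 CPM in WT. The WT level was thus under the droplets in all 3 classes, as was the KO level in neutrophils. Droplet levels are those of free RNA alone, which is only a part of a cell's UMIs. Contamination by it was estimated at 18.1% in the KO and 11.1% in the WT library. A level under the droplets can thus still exceed what free RNA adds, here and in every other comparison with them. A Nos2 UMI was found in 12.1% of KO and 17.7% of WT epithelial cells (medians of 18952 and 19472 UMIs), or in 1.04% and 1.91% with every cell thinned to 1000 UMIs. T or innate lymphoid cells, which are not a known source, had 1.04% and 1.73% (medians of 3326 and 3594 UMIs), or 0.263% and 0.627% after thinning.

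Among the 9 genes, Nos2 alone lay past 1.5-fold between the libraries, in each of the 3 classes and in unlike directions. In epithelial cells it was lower in the KO library, 1.52-fold, with a log2 ratio of −0.60 (interval −0.71 to −0.49). That call was lost with median-of-ratios scaling (−0.54), with totals without mitochondrial and ribosomal genes (−0.58) and with free RNA subtracted (−0.57), among other settings. Nos2 was the only 1 of 9 past 1.5-fold, where 18.8% of 18579 genes with 20 or more UMIs were (7.34% higher and 11.5% lower in KO). Scaled by class totals, all 9 genes had a ratio below 0 in epithelial cells, with a median log2 ratio of −0.19 against −0.06 over all genes. The share of all genes below 0 was not counted. Under other settings the ratios reached 0.05 for Noxo1, 0.22 for Noxa1 and 0.07 for Arg2. In neutrophils Nos2 was 3.42-fold lower in the KO library, with a log2 ratio of −1.77 (−2.42 to −1.17). There, 1 of 9 was past 1.5-fold against 24.2% of 11642 genes (18.4% higher and 5.85% lower in KO). The genes' median log2 ratio was 0.19 and that of all genes 0.17. In monocytes or macrophages Nos2 was 2.11-fold higher in the KO library, with a log2 ratio of 1.08 (0.74 to 1.42). Again 1 of 9 was past the fold, against 13.5% of 12963 genes (6.52% higher and 7.0% lower in KO), with medians of −0.01 and 0.03. In every class 1 of 9 was thus a smaller share than that of all genes. At 2-fold, 0 of 9 were called in epithelial cells (8.18% of all genes), while Nos2 was called in neutrophils (8.51%) and in monocytes or macrophages (4.36%).

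**Figure D2:**
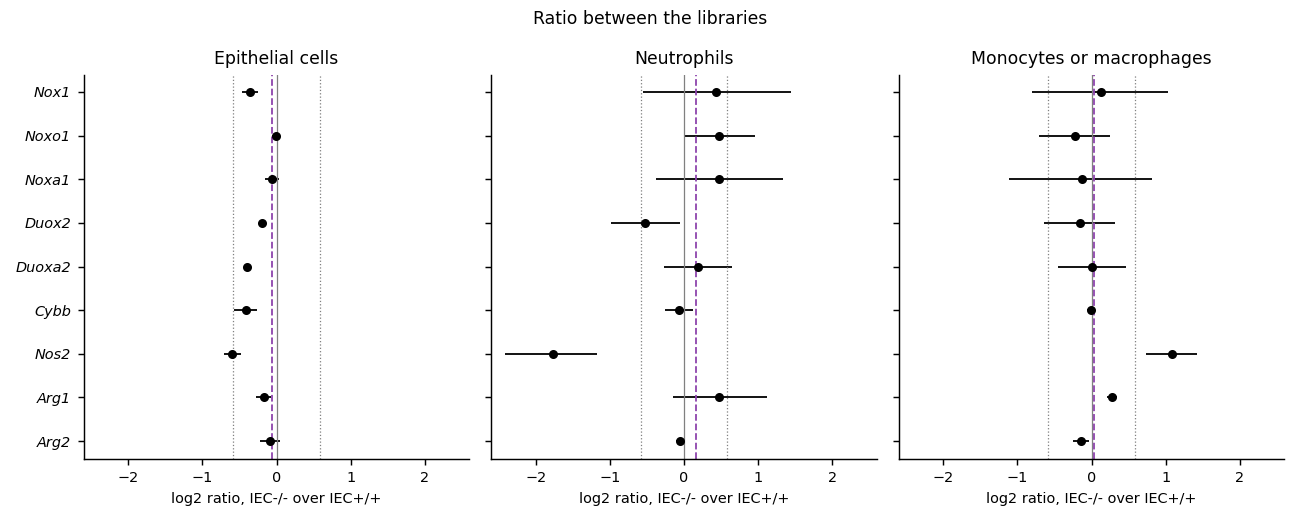
Log2 ratio of KO over WT CPM for the 9 genes in 3 classes, with exact 95% intervals for counting error. Dotted lines mark 1.5-fold and the dashed line the median of all genes; Nos2 lies at −0.60, −1.77 and 1.08, past the dotted line in each panel.

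The other members of these classes moved less. In epithelial cells Duoxa2 had a log2 ratio of −0.40 (−0.44 to −0.35), Nox1 one of −0.36 (−0.46 to −0.25) and Duox2 one of −0.19 (−0.24 to −0.14). Noxo1 was at −0.005 (−0.06 to 0.05) and Noxa1 at −0.06 (−0.16 to 0.03). Over the whole class the NOX1 regulators thus lay closer to 0 than the catalytic subunit. With subclusters given equal weight, described further on, Noxa1 was at −0.33. Cybb had a log2 ratio of −0.42 (−0.57 to −0.27) in epithelial cells, on levels of 6.09 CPM in KO and 8.14 CPM in WT cells that were below the empty droplets. The 12 macrophage markers summed to 297 CPM in KO and 565 CPM in WT epithelial cells, and the 10 neutrophil markers to 675 and 949 CPM, with none at 0. Their part in these ratios was not tested. In monocytes or macrophages Cybb was at −0.01 (−0.06 to 0.04), Arg1 at 0.27 (0.20 to 0.35) and Arg2 at −0.14 (−0.25 to −0.03). In neutrophils Arg2 was at −0.05 (−0.11 to 0.005) and Cybb at −0.07 (−0.26 to 0.12). Scaling by the median of gene ratios in place of class totals shifts every neutrophil ratio by −0.16.

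Within the epithelium the NOX1 genes differed in where they were highest. Nox1 was highest in the stem- or progenitor-like subcluster led by Lgr6, Fut9 and Krt15, at 29.0 CPM in KO and 37.9 CPM in WT cells. An unnamed subcluster led by Adh1, Muc3 and Slc5a8 followed, at 27.1 CPM in KO and 33.8 CPM in WT cells, and then cycling-like cells, at 26.5 and 31.4 CPM. The intervals of these 3 overlapped in both libraries. Low levels were found in the unnamed cells led by Clstn2 and Pdzrn4, at 4.48 CPM in KO and 6.82 CPM in WT cells, and in Wnt-high tumour-like cells led by Pnliprp2, at 4.91 and 3.83 CPM. The stem- or progenitor-like cells were 13.3% of KO and 16.3% of WT epithelial cells and held 34.0% and 40.5% of the Nox1 UMIs. Noxa1 was at 29.4 CPM in KO and 56.3 CPM in WT Adh1-led cells, above the 19.99 and 26.1 CPM of the stem- or progenitor-like cells. In an unnamed subcluster of few UMIs per cell led by Gm26917 it was at 56.1 CPM in KO and 38.1 CPM in WT cells (37 and 32 UMIs). Noxo1 was broader: it was at 77.6 CPM in KO and 95.9 CPM in WT stem- or progenitor-like cells and at 101 and 111 CPM in the absorptive-like cells led by Clca4b, Saa1 and Ly6m, with the highest level in Clca3a2-led absorptive-like cells, at 153 and 201 CPM.

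DUOX2, its maturation factor and Nos2 were highest in absorptive-like cells. Duox2 was at 114 CPM in KO and 187 CPM in WT cells of the Clca4b-led absorptive-like subcluster, and Duoxa2 at 137 and 273 CPM. A smaller absorptive-like subcluster led by Clca3a2, with medians of 1213 KO and 1078 WT UMIs per cell, had still higher levels: Duox2 was at 575 CPM in KO and 750 CPM in WT cells, and Duoxa2 at 591 and 985 CPM. Nos2 followed the same pattern, with 22.1 CPM in KO and 37.3 CPM in WT Clca4b-led cells and 111 and 216 CPM in Clca3a2-led cells (21 and 59 UMIs). Secretory states also held Duox2. Goblet-like cells were 7.74% of KO and 2.10% of WT epithelial cells and held 14.6% and 3.41% of the Duox2 UMIs. For Lyz1-led Paneth-like or deep crypt secretory cells these shares were 3.88% and 4.16% of cells and 7.33% and 6.07% of UMIs. Levels were low in Pnliprp2-led Wnt-high tumour-like cells, with Duox2 at 11.1 CPM in KO and 11.6 CPM in WT cells, and Nos2 at 2.84 and 3.39 CPM. The 3 genes therefore varied far more between states than between libraries. The Gm26917-led cells also held Nos2, at 28.8 CPM in KO and 32.1 CPM in WT cells (19 and 27 UMIs).

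Compared within states, the Nos2 level of the KO library was under that of the WT library in 11 of 11 epithelial subclusters with 30 or more cells in both libraries, 1 of them on 0 KO and 1 WT UMI. Cybb was under it in 11 of 11 and Duox2 in 10 of 11. With subclusters at resolution 1 the counts were 12 of 15 for Nos2, 14 of 15 for Cybb and 11 of 15 for Duox2. At resolution 0.3 they were 8 of 8, 7 of 8 and 7 of 8. Over the class Cybb was below the empty droplets, which held 46.8 CPM in KO and 65.9 CPM in WT. The part of free RNA in the Cybb ratios was not tested. The interval of the Nos2 ratio lay below 0 in the Clstn2-, Lgr6-, Clca4b-, Zg16- and Clca3a2-led subclusters and reached 0 in the others. The ratio for Nos2 was −0.78 (−1.03 to −0.53) in stem- or progenitor-like cells, −0.75 (−0.95 to −0.55) in Clca4b-led cells and −0.96 (−1.76 to −0.22) in Clca3a2-led cells. At resolution 1 the stem- or progenitor-like subclusters, led by Lgr6 and by Fut9, held 27 KO and 707 WT cells and 566 KO and 21 WT cells. How far the −0.78 reflects this split by library was not tested. With the subclusters given equal weight in both libraries, the log2 ratios were −0.66 (−0.78 to −0.54) for Nos2 and −0.61 (−0.66 to −0.56) for Duoxa2. They were −0.47 (−0.52 to −0.42) for Duox2 and −0.42 (−0.54 to −0.31) for Nox1. Each of these was farther from 0 than over the whole class. At resolution 1, however, the Nos2 ratio was −0.57 (−0.75 to −0.40), closer to 0 than over the whole class, and at 0.3 it was −0.65. With equal weights Noxa1 was at −0.33 (−0.43 to −0.22), or −0.205 and −0.276 at resolutions 0.3 and 1. Noxo1 was at −0.14 (−0.20 to −0.08). Such ratios leave out subclusters with under 30 cells in a library, among them a Wnt-high tumour-like one led by Mptx2 with 6 KO and 509 WT cells.

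The largest joint difference was in the Clca4b-led absorptive-like cells (489 KO and 497 WT cells). There, 5 of the 9 genes were past 1.5-fold, and each of the 5 was lower in the KO library, where 8.13% of 13596 genes were lower past that fold. Arg1 was at 22.4 CPM in KO and 71.4 CPM in WT cells (−1.67, −1.86 to −1.49), and the Duoxa2 ratio had an interval of −1.07 to −0.92. The KO level of Arg1 was under the KO empty droplets (29.4 CPM), and the WT level was above the WT ones (34.5 CPM). Nox1 was at −0.78, Nos2 at −0.75 and Duox2 at −0.71, while Noxo1 (−0.14), Noxa1 (−0.06) and Arg2 (0.07) lay closer to 0 than Cybb (−0.44). Goblet-like cells led by Zg16 (345 KO and 97 WT cells) had 4 of 9 genes lower past the fold, Nox1, Duoxa2, Nos2 and Cybb, where 14.6% of 11495 genes were. Of these 4, Nos2 and Cybb were under the empty droplets in both libraries and Nox1 in the KO library, while Duoxa2 was above them in both. The WT Nox1 UMIs of goblet-like cells all lay in 10 or fewer cells, with up to 8 in 1 cell. Median UMIs per cell there were 23290 in KO and 13921 in WT. Paneth-like or deep crypt secretory cells led by Lyz1 had 2 of 9 higher, where 5.77% of 11846 genes were, and 1 lower, where 8.42% were: Noxa1 was at 15.2 CPM in KO and 8.72 CPM in WT cells, and Arg1 at 15.01 and 6.66 CPM, while Arg2 was at 6.43 CPM in KO and 9.87 CPM in WT cells. All 6 values were under the empty droplets. The share of all genes past 1.5-fold in either direction was 14.3%, 20.8% and 14.2% in these 3 subclusters.

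**Figure D3:**
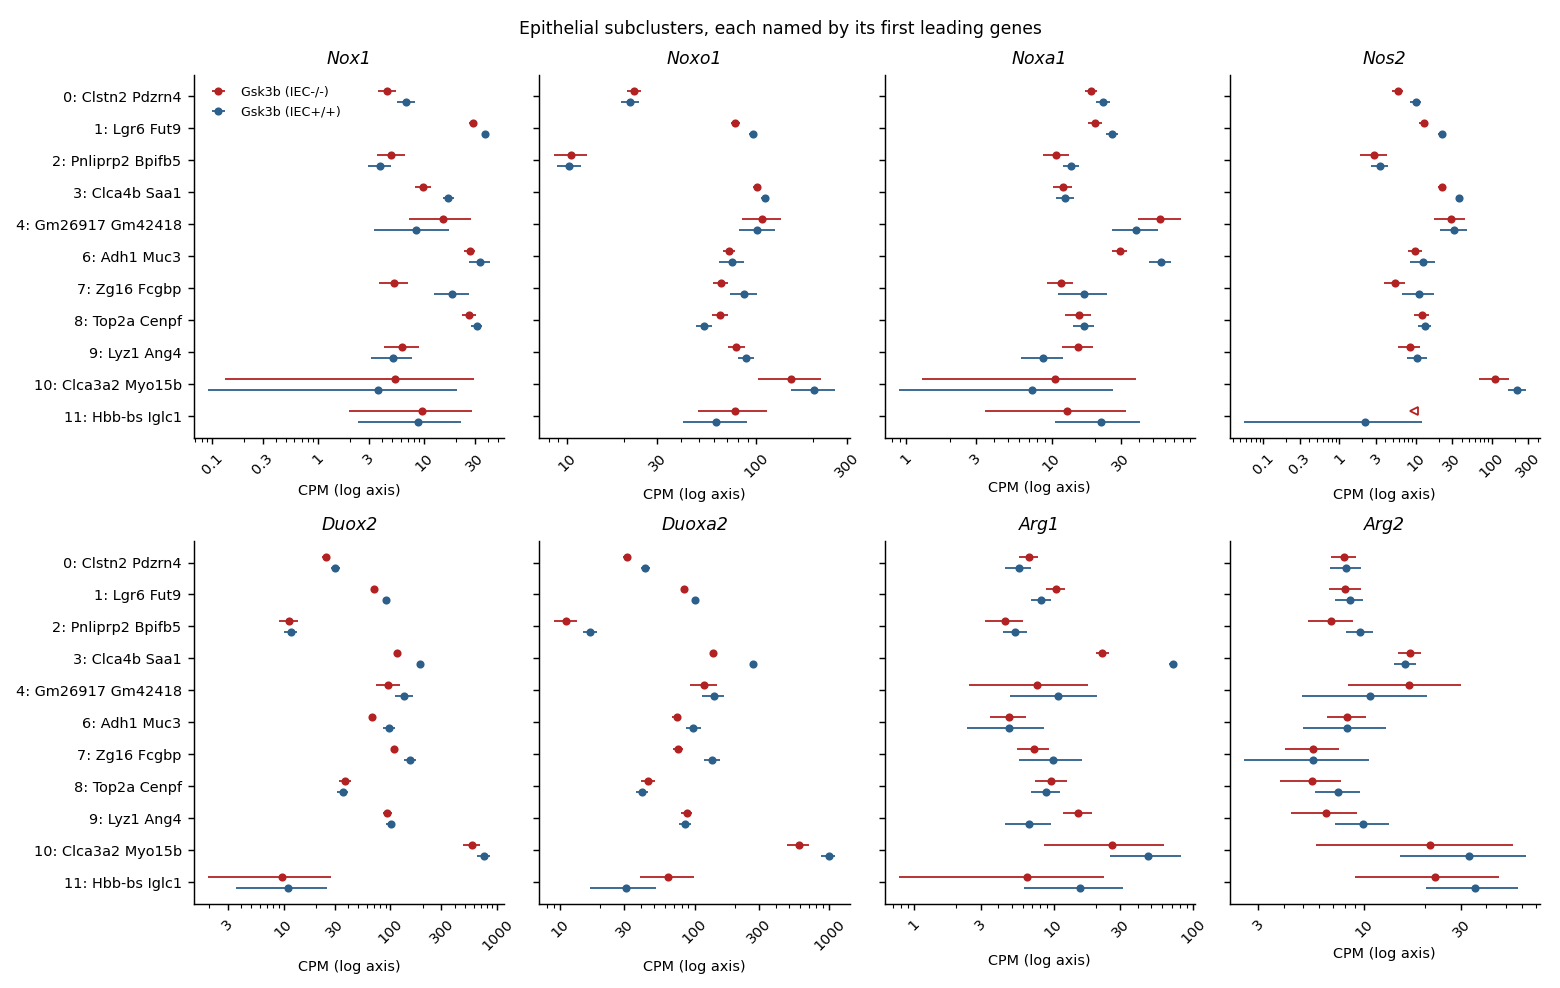
Level (CPM, log axes) of 8 genes in the 11 epithelial subclusters with 30 or more cells in each library, KO in red above WT in blue, with exact 95% Poisson intervals; an open triangle marks the level that 3 UMIs would give where none was read. Nox1 is highest in the Lgr6-led, Adh1-led and Top2a-led subclusters, and Duox2, Duoxa2 and Nos2 in the Clca3a2-led one.

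Arg1 UMIs of the epithelium were divided differently over the subclusters in each library. An Arg1 UMI was found in 13.7% of KO and 15.1% of WT epithelial cells, and the 10 cells with the most held 36.8% of the KO and 17.7% of the WT UMIs. Over all epithelial cells Arg1 was at 15.2 CPM in KO and 17.2 CPM in WT cells, under the empty droplets at 29.4 and 34.5 CPM. In the WT library 1158 of 1773 epithelial Arg1 UMIs came from Clca4b-led absorptive-like cells. In the KO library those cells gave 323 of 1479 UMIs, and 523 came from 16 cells, a subcluster absent from the WT library, whose leading genes include BC037156, Ppbp, Sprr2d, Krt5 and Krt6a, the last 3 of them genes of squamous epithelium. Its marker count named it absorptive, which its leading genes do not bear out. Arg1 was at 1864 CPM (1708 to 2031) there, with 10 of the 16 cells holding UMIs and up to 173 UMIs in 1 cell. Neutrophil markers summed to 7468 CPM in these 16 cells, against 675 CPM in all KO epithelial cells. The part of neutrophil RNA in the Arg1 level was not tested. Without the 16 cells the epithelial Arg1 ratio was −0.80 in place of −0.17.

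Nos2 RNA of WT neutrophils was concentrated in 1 subcluster. It is led by Gbe1, Hspa1a, Lipa and Hspa1b, genes of glycogen and lipid handling and of the heat shock response, and is called activated-like from its markers. Nos2 had 1 UMI in 156 KO cells and 49 UMIs in 343 WT cells of it, or 3.33 and 66.5 CPM, a log2 ratio of −4.32 (−9.65 to −1.78). The KO level was under the KO empty droplets and the WT level above the WT ones. A Nos2 UMI was found in 0.641% of the KO and 10.2% of the WT cells (medians of 1824.5 and 2028 UMIs), or in 0.694% and 4.78% with cells thinned to 1000 UMIs. This subcluster was 4.30% of KO and 13.02% of WT neutrophils and held 1 of 30 and 49 of 96 Nos2 UMIs. Without it the neutrophil ratio was −0.90. In immature granule-like neutrophils led by Ngp (637 KO and 1429 WT cells) Nos2 was at 1.71 CPM in KO and 8.83 CPM in WT cells, both under the empty droplets, as was its level in the Il1a-led activated-like neutrophils (2160 KO and 564 WT cells), at 2.64 and 4.48 CPM. The direction was not the same in every subcluster: the unnamed cells led by Supv3l1 (397 KO and 116 WT cells) had 11 Nos2 UMIs in KO and 1 in WT cells, or 15.2 and 3.74 CPM, with a log2 ratio of 2.03 (−0.76 to 7.45). The monocyte or macrophage markers summed to 998 CPM in KO and 1777 CPM in WT cells of the Gbe1-led subcluster, with Ccr2 at 0 in both and Adgre1 at 0 in KO cells. Their part in the Nos2 ratio was not tested.

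Arg2 and Cybb stayed within 1.5-fold between the libraries in the neutrophil states named here, and Arg2 differed more between states. Arg2 was at 808 CPM in KO and 860 CPM in WT Il1a-led cells and at 769 and 820 CPM in Ngp-led cells. It was lower in the Gbe1-led cells, at 449 CPM in KO and 517 CPM in WT cells. An Arg2 UMI was found in 64.3% of KO and 73.1% of WT neutrophils. With every cell thinned to 1000 UMIs these shares were 47.0% and 48.8%. Cybb was at 65.6 CPM in KO and 83.6 CPM in WT Il1a-led cells, −0.35 (−0.67 to −0.02), and at 66.8 and 67.9 CPM in Ngp-led cells.

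In monocytes or macrophages most Nos2 UMIs came from monocyte-like cells. In the subcluster led by Serpinb2, Saa3, Slpi and F13a1 (257 KO and 501 WT cells) Nos2 had 126 UMIs in KO and 75 UMIs in WT cells, or 80.4 and 26.8 CPM, a log2 ratio of 1.59 (1.16 to 2.02). A Nos2 UMI was found in 16.7% of KO and 5.59% of WT cells, and in 5.84% and 2.02% after thinning. Arg1 was higher in the same KO cells, at 334 CPM against 150 CPM in WT cells (1.16, 0.97 to 1.35). These were 2 of the 7 genes with 20 or more UMIs there, where 8.4% of 9045 genes were higher past 1.5-fold and 18.9% were past it in either direction. In the Ccl24-led and Dcstamp-marked macrophages (244 KO and 274 WT cells) Nos2 was level, at 13.6 CPM in KO and 14.04 CPM in WT cells, and Arg1 was at 427 CPM in KO and 594 CPM in WT cells (−0.48, −0.60 to −0.35). The unnamed cells led by Mfge8 and Gpnmb had Nos2 at 6.98 CPM in KO and 3.75 CPM in WT cells (19 and 14 UMIs; 0.90, −0.18 to 2.01) and Arg1 at 520 and 485 CPM. Complement-marked macrophages led by Ccl8 had 0 Arg1 UMIs in 38 KO cells, which allows up to 10.6 CPM, and 12.7 CPM in 149 WT cells. So Nos2 and Arg1 were both higher in the KO monocyte-like cells, while Arg1 was lower in the KO Ccl24-led cells. Ly6i and Cxcl9 are also among the leading genes of the Ccl24-led subcluster. At resolution 1 a Ccl24-led subcluster held 173 KO and 261 WT cells, and one led by Ly6i and Cxcl9 held 62 and 8. How far the −0.48 for Arg1 reflects such a split by library was not tested.

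The excess of Nos2 rested on few cells. The 10 cells with the most UMIs held 43.6% of the Nos2 UMIs of KO monocytes or macrophages and 43.7% of those of WT cells, with up to 13 and 8 UMIs in 1 cell. Without the Serpinb2-led subcluster the class ratio was 0.42. With the subclusters given equal weight in both libraries it was 1.14 (0.80 to 1.48), and 1.10 with subclusters at resolution 0.3. At resolution 1 it was 0.58 (0.23 to 0.93). That value leaves out subclusters with under 30 cells in a library, among them a monocyte-like one led by Ly6i and Cxcl9 with 62 KO and 8 WT cells. At resolution 1 other monocyte-like cells formed a Serpinb2-led subcluster of 175 KO and 218 WT cells and a Ly6c2-led one of 89 and 287. The part of composition in the Nos2 ratio of the Serpinb2-led cells was not tested. Where no doublets were removed the ratio was −0.21, in a class of 520 KO and 811 WT cells, with 482 KO and 822 WT cells left without a class name. In the Serpinb2-led subcluster the epithelial markers summed to 1581 CPM in KO and 1683 CPM in WT cells and the neutrophil markers to 2892 and 2835 CPM, with none at 0. Their part in the Nos2 ratio was not tested. Empty droplets held less Nos2 in the KO library, and with free RNA subtracted the class ratio was 1.34.

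**Figure D4:**
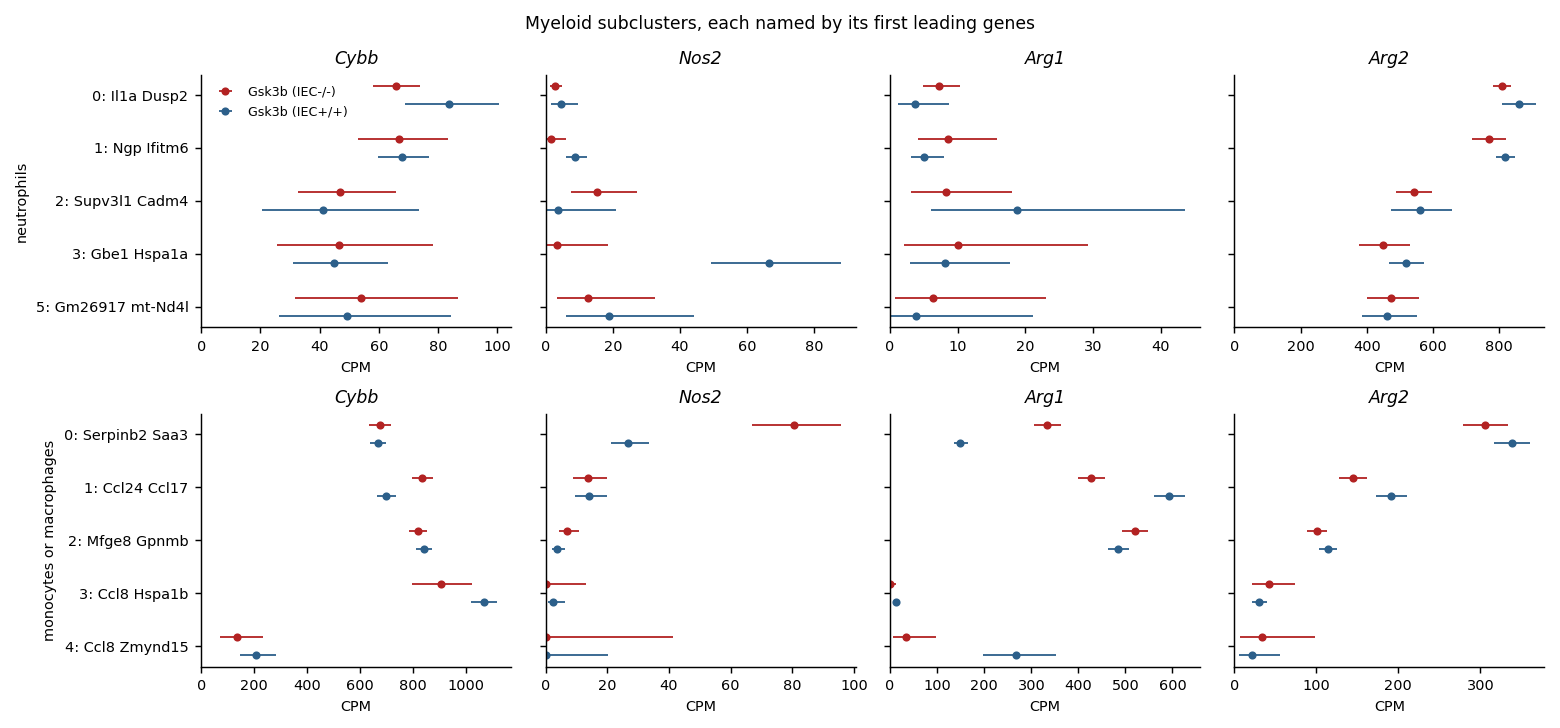
Level (CPM, linear axes from 0) of 4 genes in the neutrophil and the monocyte or macrophage subclusters with 30 or more cells in each library, KO in red above WT in blue, with exact 95% Poisson intervals. Nos2 stands out in the WT Gbe1-led neutrophils at 66.5 CPM and in the KO Serpinb2-led monocyte-like cells at 80.4 CPM.

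Single cells were checked for transcripts of partners. Of the KO epithelial cells with a Duox2 UMI 65.7% also had a Duoxa2 UMI, against 41.3% of all KO epithelial cells, and in the WT library these shares were 70.4% and 43.8%. With cells thinned to 1000 UMIs, 58 KO and 104 WT cells held both, where independence would give 18.0 and 30.9. Of the cells with a Nox1 UMI 73.4% in KO and 77.6% in WT also had a Noxo1 UMI. After thinning only 2 KO and 6 WT cells held both, where independence would give 2.66 and 3.32, so no joint reading was detectable at this depth. In monocytes or macrophages 61.5% of the KO cells with a Nos2 UMI and 57.6% of the WT ones also had an Arg1 UMI, against 35.1% and 31.2% of all these cells. With thinning 9 KO cells held both where independence gives 3.80, and 4 WT cells where it gives 2.63.

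Likeness was read over 49 units of cluster and library with 30 or more cells, as Pearson correlations of log2(CPM + 1) among 12979 genes. The clusters were those of all cells together. These units share 2 libraries and differ in depth, so r is a description. Duox2 and Duoxa2 had an r of 0.94 with each other. Outside the 9 genes, those most like Duox2 were Ms4a8a (0.92), Atp10b (0.91) and Ceacam1 (0.90), and those most like Duoxa2 were Ms4a8a, Tmem45b and Pde9a (each 0.93). Nox1 was nearest to Ahcy (0.77), Sh3gl2 (0.76) and Sdsl (0.75), with 0.65 to Noxo1 and 0.53 to Noxa1. Noxo1 was nearest to Fzd5 (0.90), Tmc5 and Sh2d4a (each 0.87), and Noxa1 to Kank1 (0.85), Abcc2 (0.84) and Cxadr (0.83). Cybb was nearest to Fcgr2b (0.89), March1 (0.87) and Gm6377 (0.86). Nos2 was nearest to Trim15 (0.81), Cyp4f14 and Capn13 (each 0.73). Among the genes near Arg1 were Mmp12 (0.78) and Itgb5 (0.76). Arg2 was nearest to Cxcl2 (0.97), Clec4e (0.96) and Trem1 (0.95), all genes known from activated neutrophils and macrophages.

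The other 52 genes of the pathways were mostly level between the libraries. Of 11 other oxidase subunits and isoforms 9 had 20 or more UMIs in epithelial cells, and 1 was past 1.5-fold: Rac2, the blood cell Rac that activates the phagocyte oxidase, was at 14.9 CPM in KO and 22.4 CPM in WT cells (−0.59), under the empty droplets at 85.7 and 129 CPM. In neutrophils 1 of 7 was past the fold, Cybc1, a chaperone of the CYBB enzyme, at 12.9 CPM in KO and 21.0 CPM in WT cells (−0.70). The empty droplets held 16.1 CPM of Cybc1 in KO and 16.4 CPM in WT, so its KO level in neutrophils was under them. Cybc1 was the 1 of 7 in monocytes or macrophages too, at 19.0 CPM in KO and 32.9 CPM in WT cells (−0.79). Cyba, the membrane partner shared by NOX1 and CYBB, was at 694 CPM in KO and 763 CPM in WT epithelial cells and at 1543 and 1472 CPM in monocytes or macrophages. The cytosolic phagocyte subunit Ncf1 was at 321 CPM in KO and 329 CPM in WT neutrophils. The medians of this list were −0.28, −0.22 and −0.08 in epithelial cells, neutrophils and monocytes or macrophages.

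Of 14 arginine, citrulline and nitric oxide genes 13 were tested in epithelial cells, 2 were higher in KO and 0 lower past the fold. Cps1, which makes carbamoyl phosphate for the urea cycle, was at 8.29 CPM in KO and 1.82 CPM in WT cells (2.18), and Otc, which joins it to ornithine, at 1.04 and 0.281 CPM (1.89). Ass1, which recycles citrulline to arginine, was at 26.6 CPM in KO and 29.9 CPM in WT cells. Gch1, which starts the synthesis of the nitric oxide synthase cofactor, was at 92.9 CPM in KO and 105 CPM in WT cells. In neutrophils 0 of 9 were past the fold. In monocytes or macrophages 1 of 10 was, the arginine transporter gene Slc7a2, at 139 CPM in KO and 86.4 CPM in WT cells (0.68). Of 15 ornithine and polyamine genes, 1 of 15 was lower in KO epithelial cells, Pycr1, an enzyme of proline synthesis, at 25.9 CPM against 40.0 CPM in WT cells (−0.62). Odc1, the first enzyme of polyamine synthesis, was at 164 CPM in KO and 155 CPM in WT epithelial cells. In neutrophils, of 12 tested, Amd1 was higher (22.1 CPM in KO and 12.7 CPM in WT cells, under the droplets at 37.5 and 34.5 CPM) and Oaz2 lower (24.8 and 37.9 CPM), and in monocytes or macrophages 0 of 14 were past the fold. Of 12 peroxide and superoxide users, Sod3, the extracellular superoxide dismutase, was higher in KO epithelial cells at 1.47 CPM against 0.310 CPM in WT cells and in KO neutrophils at 3.16 CPM against 0.614 CPM. All of these levels were under the empty droplets, which held 9.36 CPM in KO and 3.24 CPM in WT, and there were 184 fibroblasts in the KO and 0 in the WT library. The part of free RNA in the Sod3 ratios was not tested. The remaining 10 tested in epithelial cells, 8 in neutrophils and 8 in monocytes or macrophages were not past the fold. Gpx2, the epithelial glutathione peroxidase, was at 1214 CPM in KO and 1364 CPM in WT epithelial cells.

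**Figure D5:**
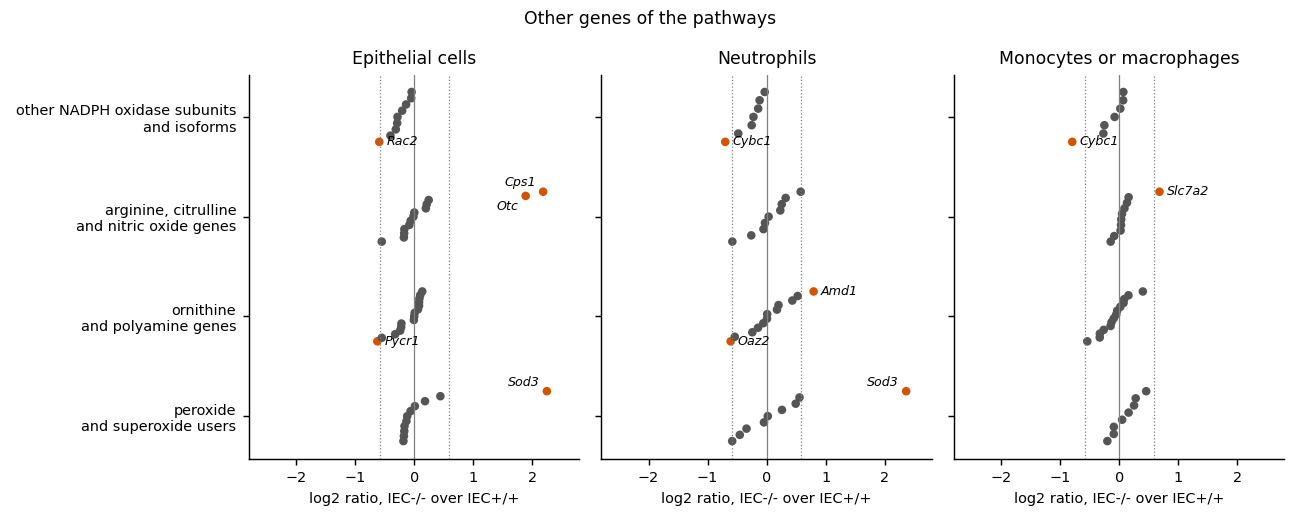
Log2 ratio of KO over WT CPM for the other pathway genes with 20 or more UMIs, by list and class. Each point is a gene, orange points lie past 1.5-fold (dotted lines) and are named, and most points lie between the dotted lines.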

How the data were processed

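For every barcode the deposited files give raw UMI counts, as Cell Ranger 4 wrote them, per the file headers; the submitters' processing notes also name mm10 and Seurat, and no source used here states an annotation release. The 9 genes and the gene lists were chosen with earlier results of these data known. Barcodes with 500 or more UMIs were tested against free RNA (from barcodes under 100 UMIs, 10000 Monte Carlo draws, false discovery rate 0.001). Those under 200 genes or over 25% mitochondrial UMIs and the highest doublet scores (0.8% per 1000 cells) were removed. Clustering used 2000 variable genes without the 9, 30 principal components, 15 neighbours and Leiden resolution 1 (0.6 within a class), without integration, since library and genotype coincide. A cluster was named from 3 or more markers, each read in 25% of its cells and 2-fold above a low (25%) quantile over clusters. CPM are summed UMIs of a gene scaled by all UMIs of that class in that library. Poisson, binomial (Clopper-Pearson) and conditional binomial intervals are exact at 95% and cover counting error only, since UMIs of one library are not replicates; the ratio interval was tested on simulated data. A gene counted as past the fold at 1.5-fold with 20 or more UMIs; at 0 UMIs the limit is 3 counts. Named genes were the 9, list genes past the fold (up to 4 per list and class by UMIs), the 3 nearest genes by correlation (500 or more UMIs; 1 of these is not reported here) and Gsk3b; other genes are named for their role or as leading genes, after their values were seen. Python 3.11.15 was used with scanpy 1.11.5, matplotlib 3.10.9, leidenalg 0.10.2, numba 0.67.0, pandas 2.3.3, igraph 0.11.9, scipy 1.17.1, numpy 2.4.6 and scikit-learn 1.9.0. The alternatives cover cell calling, the mitochondrial limit, doublets, clustering, scaling, free RNA, depth and cells with UMIs of another class.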

Additional observations from a re-analysis of the deposited data

Results flagged for a closer look

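Nos2 was singled out because its difference between the libraries ran in opposite directions in cell classes taken from the same tumours. Its log2 ratio in monocytes or macrophages exceeded that in epithelial cells by 1.68 and that in neutrophils by 2.85. The ratios were 1.08 in monocytes or macrophages, −0.60 in epithelial cells and −1.77 in neutrophils. With 1 library per genotype the difference between classes was not tested.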

How the results depend on the processing

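With 1 library per genotype, no library could be left out. No paired analysis was possible because the labels give each genotype a single library, numbered 1. Class totals were the scale; the number of the 9 genes past 1.5-fold was 1 in each class. In epithelial cells it was 0 with median-of-ratios scaling, with totals without mitochondrial and ribosomal genes, with free RNA subtracted, at a fold of 2, with each library clustered alone and without the subcluster highest in Nos2. It was 2 with a mean over cells and without the subcluster highest in Arg1, and 3 in subclusters with 30 or more cells in both libraries. It stayed 1 but named Arg1 in place of Nos2 with every barcode of 500 or 1000 UMIs, a mitochondrial limit of 10% and no doublet removal. The epithelial Nos2 ratio stayed below 0 throughout, between −0.93 and −0.49. In neutrophils the number was 2 with median-of-ratios scaling, a mean over cells and every barcode of 500 UMIs, 3 with every barcode of 1000 UMIs and no doublet removal, 4 with free RNA subtracted and the 10% limit, and 5 in cells without Epcam UMIs. Nos2 was among them each time. In monocytes or macrophages it was 2 with a mean over cells, and 0 without the subcluster highest in Nos2 and without doublet removal. In the last setting the Nos2 ratio turned to −0.21, in a class of 520 KO and 811 WT cells; the cause was not tested. Of 505 values of single genes under alternatives 436 stayed within their counting error, 68 moved beyond it and 1 changed sign while past the fold. The 3 settings that leave subclusters in or out were chosen after seeing the data. Counts of under 100 UMIs, such as Nos2 in neutrophils, limit what a ratio can show.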
